A study of Drosophila melanogaster with 800 samples.

Results

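Cuticle protein genes encode the structural proteins that, with chitin, make up the exoskeleton of insects. They were taken as the FlyBase-identified genes whose symbol starts with Cpr, Twdl, Ccp84A, Lcp, Acp65A, Edg or Pcp. Of 17097 such identified genes in the table, 126 fitted, and 1 of them, Cpr, is the cytochrome P450 reductase gene and fits by spelling only. The remaining 125 were 70 Cpr genes, 26 Tweedle genes (symbols starting with Twdl), 17 Lcp genes, 7 Ccp84A genes and 5 others (Acp65Aa, Edg78E, Edg84A, Edg91 and Pcp). The annotation lists 3 of them as pseudogenes.

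Cpr proteins carry a chitin-binding motif known as the Rebers and Riddiford consensus, and Tweedle proteins are a separate insect family, in which TwdlD was named for mutants of altered body shape. A new cuticle is secreted in the late embryo, before each larval molt, at pupariation and in the pharate adult, under the control of ecdysone pulses. Many of these genes are therefore known as larval, pupal or adult genes, and the epidermis of the adult goes on laying down cuticle for some days after eclosion. The families lie in tandem arrays.

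The flies came from the DGRP, a panel of 200 inbred, sequenced wild-derived Drosophila melanogaster lines. Per line there were 2 pools of 25 mated females and 2 pools of 30 males, none of them treated, reared at 25 °C and taken whole at 3 to 5 days of age, and each pool gave 1 rRNA-depleted, strand-specific RNA-seq library, 400 per sex. Values are log2 FPKM (fragments per kilobase of exon and per megaread), where a gene without reads is listed at -9.97. Depth recovered from the steps between low values was 7.27 to 30.6 M reads (megareads) in female libraries and 7.87 to 30.4 M reads in male libraries, so that 1 FPKM of a gene of 1 kb stood on as many reads as the library had megareads.

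Sex-specific transcripts followed the labels in nearly all libraries. The summed level of 10 eggshell genes had a median of 5565 FPKM in females and 7.09 FPKM in males, and that of 9 testis genes a median of 1.31 FPKM in females and 4053 FPKM in males. A few libraries carried transcripts of the other sex: the sum of testis genes reached 66.0 FPKM in a female library and the sum of eggshell genes 910 FPKM in a male library. The lowest female eggshell sum, 37.7 FPKM, was in line 492, and the counts of cuticle protein genes that differ between the sexes and of correlated pairs were also made without this line. The labels do not name the sequencing pool of each library, so no value within a pool is given.

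Adult whole flies held little RNA of most cuticle protein genes. A mean log2 FPKM of at least 0 was reached in either sex by 33 of the 125, or 26.4%, against 74.7% of all FlyBase-identified genes. Libraries without reads pull this mean down, so it can lie well below the median level, as for Lcp65Ag1 below. The level was at least 0 for 23 genes in females and 25 in males, of which 15 were shared. In both sexes 92 genes lay below 0, 36 were listed at the lowest value in most libraries of both sexes, and Lcp65Ab2, Cpr57A and Cpr65Ax2 were at the lowest value in all 800 libraries. Lcp65Ab2 and Cpr65Ax2 have near-identical copies, Lcp65Ab1 and Cpr65Ax1, between which reads may have been divided, as they may among Lcp65Ag1, Lcp65Ag2 and Lcp65Ag3, between Lcp1 and Lcp2, and between Cpr67Fa1 and Cpr67Fa2. Cpr57A lies within Obp57d on the same strand, a gene that was also at the lowest value throughout, and the part of this overlap was not tested.

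**Figure D1:**
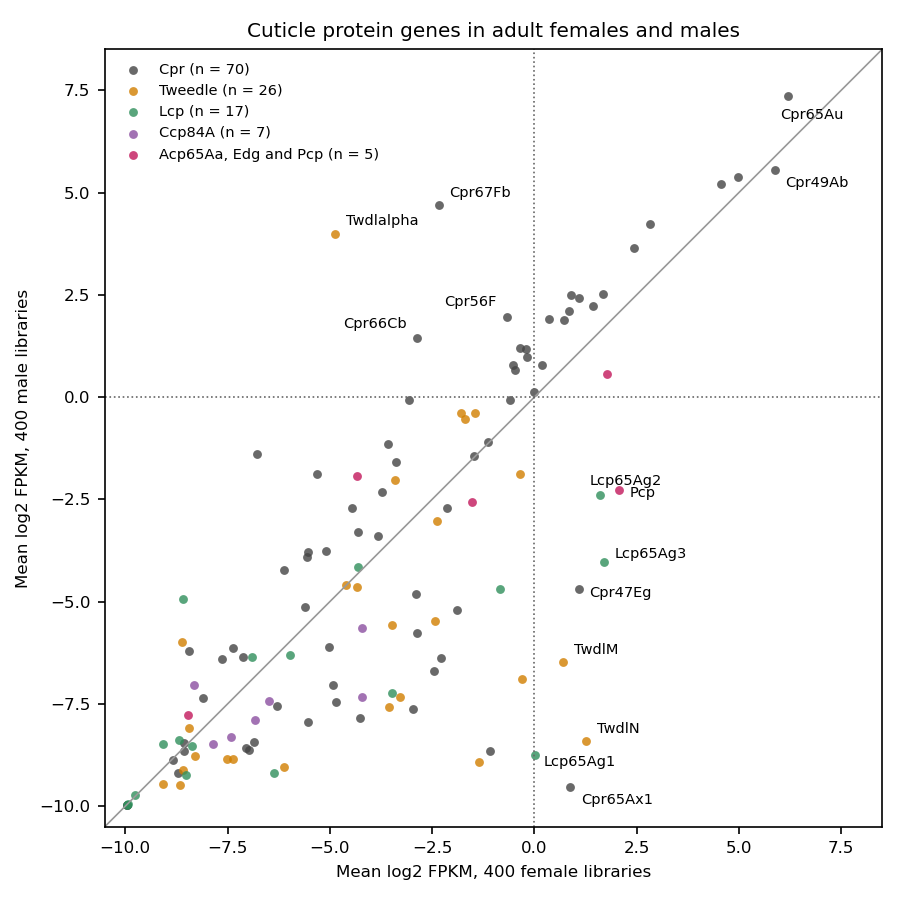
Mean log2 FPKM of the 125 cuticle protein genes over 400 female libraries (x axis) and 400 male libraries (y axis), colored by family, with the line of equal levels and dotted lines at 0. Most genes lie below 0 in both sexes, a group led by Cpr65Au lies along the diagonal above 0, and separate groups led by Cpr65Ax1 and by Twdlalpha lie far below and far above the diagonal.

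Ordered by mean log2 FPKM over both sexes, the highest levels were those of a small set of Cpr genes. Cpr65Au, a chitin-binding cuticle protein gene of the 65A array, had a lowest, median and highest value of 25.5, 75.5 and 237 FPKM over female libraries and 43.1, 165 and 402 FPKM over male libraries. Cpr49Ab had 17.4, 59.9 and 141 FPKM in females, and in males a median of 46.4 and a highest value of 122 FPKM with a lowest library at 3.32 on the log2 scale. Both are of the Rebers and Riddiford family, and the sexes overlapped for both. Cpr67B (median 31.7 FPKM in females and 42.4 in males) and Cpr49Ae (24.0 FPKM in females and 38.5 in males) followed. Cpr51A, Cpr62Bb, Cpr72Ec and Cpr66D came next in this order. Their median levels were 7.16, 5.46, 3.54 and 2.69 FPKM in females and 19.4, 12.6, 6.2 and 4.52 FPKM in males. Within a single sex the order differed, as the medians given below show. In males the median of Cpr67Fb was above that of Cpr51A, and that of Twdlalpha above that of Cpr62Bb. In females the medians of TwdlN, Cpr65Ax1, Pcp and Acp65Aa were above those of Cpr72Ec and Cpr66D. As FPKM is per length, these levels may be set beside each other. The ranges over lines of neighbours in the order over both sexes overlapped.

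Of the genes named for earlier stages, Lcp1 to Lcp4, the Edg genes and the Ccp84A array were low in adults. Pcp and Lcp65Ag1 to Lcp65Ag3, by contrast, passed the filter in females. The larval cuticle genes Lcp1 and Lcp2 had a median of 0 FPKM in females and in males. Lcp3 had a median of 0.141 FPKM in females and 0.144 FPKM in males, and Lcp4 of 0.0789 FPKM in females and 0 FPKM in males. Edg84A, an ecdysone-dependent gene of the prepupa, had a median of 0 FPKM in both sexes. Edg78E, another ecdysone-dependent gene, had 0.122 FPKM in females and 0.353 FPKM in males, and Edg91 had 0.519 FPKM in females and 0.352 FPKM in males. None of Lcp1 to Lcp4 and the Edg genes entered the tests, since their means lay below 0 in both sexes. The 7 genes of the Ccp84A array, also below the filter, had means of -8.32 to -4.20 in females and -8.49 to -5.64 in males.

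Single libraries departed from this. The highest library held 1.47 FPKM of Lcp4 among females and 7.34 FPKM (96 reads) among males. For Lcp3 the highest values were 4.89 FPKM in females and 1.64 FPKM in males. Acp65Aa, named as an adult cuticle protein gene of the 65A array, was better expressed, with a median of 3.97 FPKM in females and 1.5 FPKM in males. Pcp, the pupal cuticle protein gene that lies within an intron of the purine synthesis gene Gart, had a median of 4.57 FPKM in females and 0.321 FPKM in males.

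The sexes were compared in the 33 genes whose mean reached 0 in either sex, as the mean over lines of the female-minus-male difference, and a gene was called at a limma adjusted p below 0.05 over all 15447 features tested and an absolute difference of 1 log2 unit or more. Of these, 9 were higher in females (20.8% of all tested features), 17 were higher in males (37.2%) and 7 were not called. The median difference was -1.13, against -0.51 over all features tested. As the median of all tested features was itself 0.54 log2 units lower in female than in male libraries, the comparison was repeated with libraries centred on their medians: 9 genes were then higher in females (30.7% of all) and 7 in males (26.2%), with a median difference of -0.59 against 0.03. In whole flies, fewer cells of a type and less RNA per cell cannot be told apart. For the 8 genes that entered only through females and the 10 only through males, the filter fixed the direction of the difference. The counts of called genes therefore say nothing of the family. Among the 15 genes that passed in both sexes, 1 was higher in females (26.9% of all 10501 features that passed in both) and 8 in males (16.4%). After centring, 1 was higher in females (41.2%) and 2 in males (5.61%).

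The female-higher calls other than Acp65Aa were large. These 8 genes passed the filter through females only. The direction of their differences was thus fixed in advance, and the p-values below are no evidence for it. Cpr65Ax1, of the 65A array, had 0, 4.70 and 56.6 FPKM as its lowest, median and highest value over female libraries and 0, 0 and 3.66 FPKM over male libraries. It was listed at 0 in 43 of 400 female libraries and 380 of 400 male libraries, and 228 female libraries lay above the highest male library. On the deposited scale the difference was 10.42 ± 0.27 log2 units (SE, adjusted p = 2.26e-95, higher in 190 of 200 lines). This size depends on the pseudocount of 0.001 FPKM: with 1 FPKM it was 2.29.

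TwdlN, a Tweedle gene, had 0, 5.14 and 36.9 FPKM in females and 0, 0 and 4.71 FPKM in males. Most male libraries were at 0, while most female libraries were above the highest male library. The difference was 9.68 ± 0.27 (SE, limma adjusted p = 3.04e-90, higher in females in 193 of 200 lines) and 2.4 with the pseudocount of 1. Its neighbour TwdlM had 0, 3.26 and 28.9 FPKM in females and 0, 0 and 6.10 FPKM in males, a difference of 7.18 ± 0.29 (adjusted p = 1.90e-63).

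Lcp65Ag1, a larval-type gene of the 65A array that barely passed the filter, had 0, 2.53 and 15.6 FPKM in females and 0, 0 and 2.55 FPKM in males, a difference of 8.78 ± 0.27 (limma adjusted p = 3.71e-81). Its mean of 0.02 in females was the closest above the filter, and Cpr78E, at -0.01, was the closest below it. The other female-higher genes were Cpr47Eg (5.77), Lcp65Ag3 (5.75), Pcp (4.34), Lcp65Ag2 (4.01) and Acp65Aa (1.21), where the numbers are log2 differences. With the pseudocount of 1 FPKM, Acp65Aa was at 0.68 and no longer called.

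Twdlalpha, Cpr67Fb, Cpr66Cb and Cpr56F passed the filter through males only, so the direction of their differences was likewise fixed in advance. Of the genes higher in males, Twdlalpha separated the sexes fully. This Tweedle gene of the X chromosome had 0, 0.0781 and 0.965 FPKM in females and 7.42, 16.2 and 30.3 FPKM in males, so that all 400 male libraries lay above every female library. The difference was -8.87 ± 0.18 (SE, limma adjusted p = 7.04e-114, higher in males in 200 of 200 lines). Twdlalpha overlaps CG32568 on the same strand, and that gene had a mean of -7.15 in females and 4.60 in males and an r of 0.886 with Twdlalpha over the male line means. Which of these genes the reads came from cannot be told apart here.

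Cpr67Fb, of a 67F array of 3 genes, had 0, 0.427 and 3.44 FPKM in females and 1.38, 25.7 and 227 FPKM in males, and 397 male libraries lay above the highest female library. Its difference was -7.03 ± 0.19 (limma adjusted p = 5.22e-90). Cpr67Fb lies within an antisense RNA gene, asRNA:CR45171, which had a mean of -0.03 in females and -1.05 in males, the opposite direction. Its neighbours Cpr67Fa1 and Cpr67Fa2 were below the filter.

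Cpr66Cb had 0, 0.225 and 2.23 FPKM in females and 0, 3.75 and 17.1 FPKM in males, a difference of -4.29 ± 0.19 (limma adjusted p = 6.10e-56). Cpr56F had 0, 0.771 and 4.41 FPKM in females and 1.37, 3.96 and 9.29 FPKM in males, a difference of -2.65 ± 0.11 (adjusted p = 9.54e-60). The sexes overlapped in both genes. Cpr56F overlaps CkIIbeta2, a casein kinase subunit gene, on the opposite strand, which had a mean of -7.30 in females and 5.01 in males and an r of 0.413 with Cpr56F over male line means. The libraries keep strand, but whether the counting used it is not given in the sources used here, and the part of the overlapping gene was not tested.

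In all, 22 of the 125 genes, and 9 of the 33 tested, overlap another annotated gene. Among the tested genes without such an overlap, 7 were higher in females and 10 in males. Pcp is a known case of a gene within an intron, and its host Gart had a mean of 5.41 in females and 4.86 in males, with an r of 0.108 with Pcp over female line means. The remaining male-higher genes had differences of -1.62 (Cpr47Ef) to -1.13 (Cpr62Ba). After centring of the libraries only Twdlalpha, Cpr67Fb, Cpr66Cb, Cpr56F, Cpr47Ef, Cpr73D and Cpr92F of the 17 stayed at -1 or below. Cpr65Au, Cpr51A and Cpr62Bb, at -1.15, -1.41 and -1.22 as deposited, were at -0.61, -0.86 and -0.67 after centring.

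**Figure D2:**
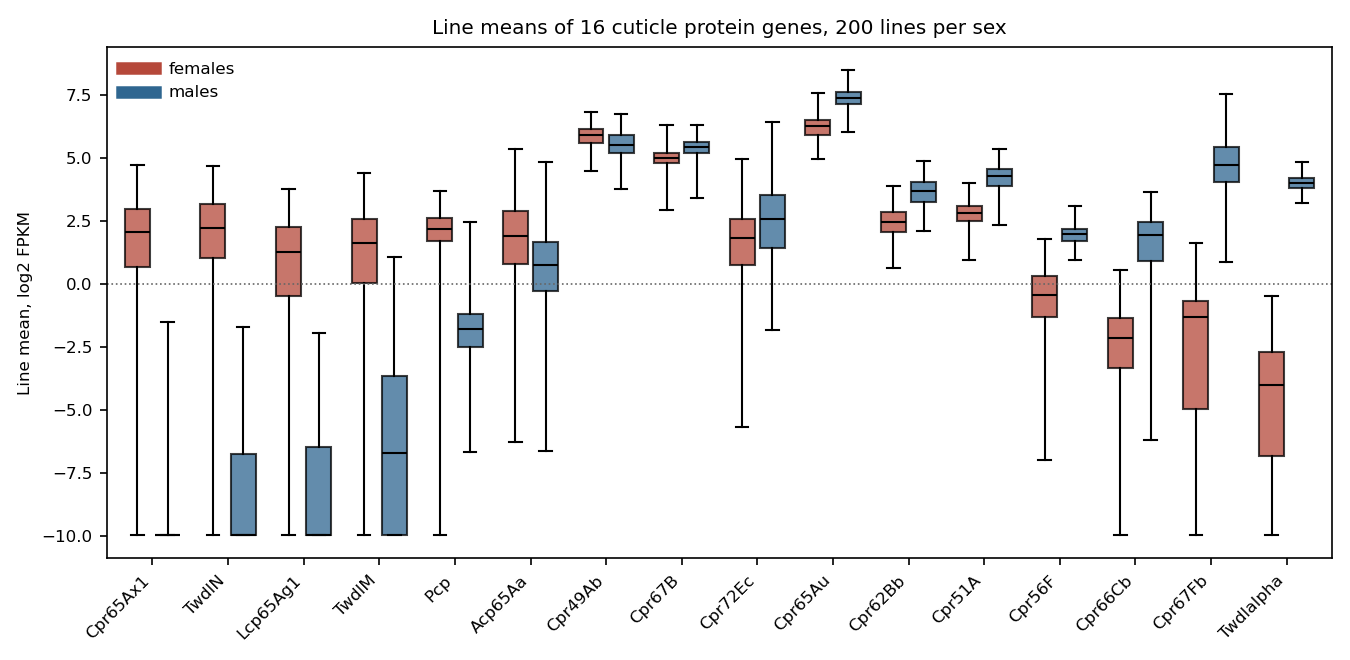
Line means of log2 FPKM (y axis) of 16 cuticle protein genes in females (left box of each pair) and males (right box), 200 lines each. Boxes span the quartiles with the median, and whiskers reach the lowest and highest line. The 4 genes on the left reach the lowest value of -9.97 in both sexes with medians above 0 only in females, and Twdlalpha on the right is the gene in which female and male boxes and whiskers lie wholly apart.

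Nearly every gene above the filter differed between lines beyond the spread of replicate pools. In females 23 of 23 genes were called (92.2% of all features tested) and in males 24 of 25 (89.6%), at a limma adjusted p below 0.05 for the line mean square against the replicate mean square. The exception was Cpr78E in males, with 0.0274 of its variance between lines. Heritability, the share of variance that lies between lines, had a median of 0.505 over the female genes (0.553 over all features) and 0.658 over the male genes (0.510 over all). The SD of line means was larger than in most genes, with a median of 0.73 log2 units in females (0.27 over all features) and 0.63 in males (0.31 over all). Of 15 genes tested in both sexes, heritability was higher in males for 12, a difference that was not tested.

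Cpr72Ec, a Rebers and Riddiford gene of a 72E array, had a heritability of 0.841 in females, next to the 0.848 of Pcp, and 0.943 in males, the highest of the 25 genes tested there. The libraries of line 535 were at 4.82 and 5.08 in females and 6.17 and 6.43 in males, and those of line 513 at -2.02 and -2.80 in females and -0.53 and -0.79 in males. Replicate pools of these lines were close and the lines far apart in both sexes. The lowest line, 551, had -1.36 and -9.97 in females and -1.42 and -2.25 in males, and without it the heritability was 0.911 in females and 0.942 in males.

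Cpr67B had a heritability of 0.827 in females and 0.861 in males over a narrower range. Line 229 was lowest in both sexes, at 3.10 and 2.74 in females and 3.42 and 3.40 in males. The highest line in females, 907, was at 6.33 and 6.28 in females and 6.18 and 6.39 in males.

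Pcp was tested in females only and had a heritability of 0.848. Line 703 had no Pcp reads in either female library, and without it the heritability was 0.681. The next lowest line, 810, was at 0.68 and -1.32 and the highest, 85, at 3.40 and 3.99 in females. Line 714, the highest for Pcp among males, was at 2.88 and 3.29 in females and 2.23 and 2.68 in males, where Pcp was below the filter.

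Cpr67Fb had a heritability of 0.859 in males, where line 748 was highest and line 358 lowest. Line 748 was at -9.97 and -1.20 in females and 7.83 and 7.28 in males, and line 358 at -9.97 and -2.34 in females and 0.46 and 1.31 in males. The high level of line 748 was thus seen in its males and not in its females. Cpr62Ba had a heritability of 0.858 in males, where line 233 was highest, at -0.47 and 0.03 in females and 3.41 and 3.23 in males, and line 721 lowest, at -3.38 and -3.15 in females and -2.78 and -3.25 in males. Its neighbour Cpr62Bb had 0.725 in females and 0.835 in males.

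**Figure D3:**
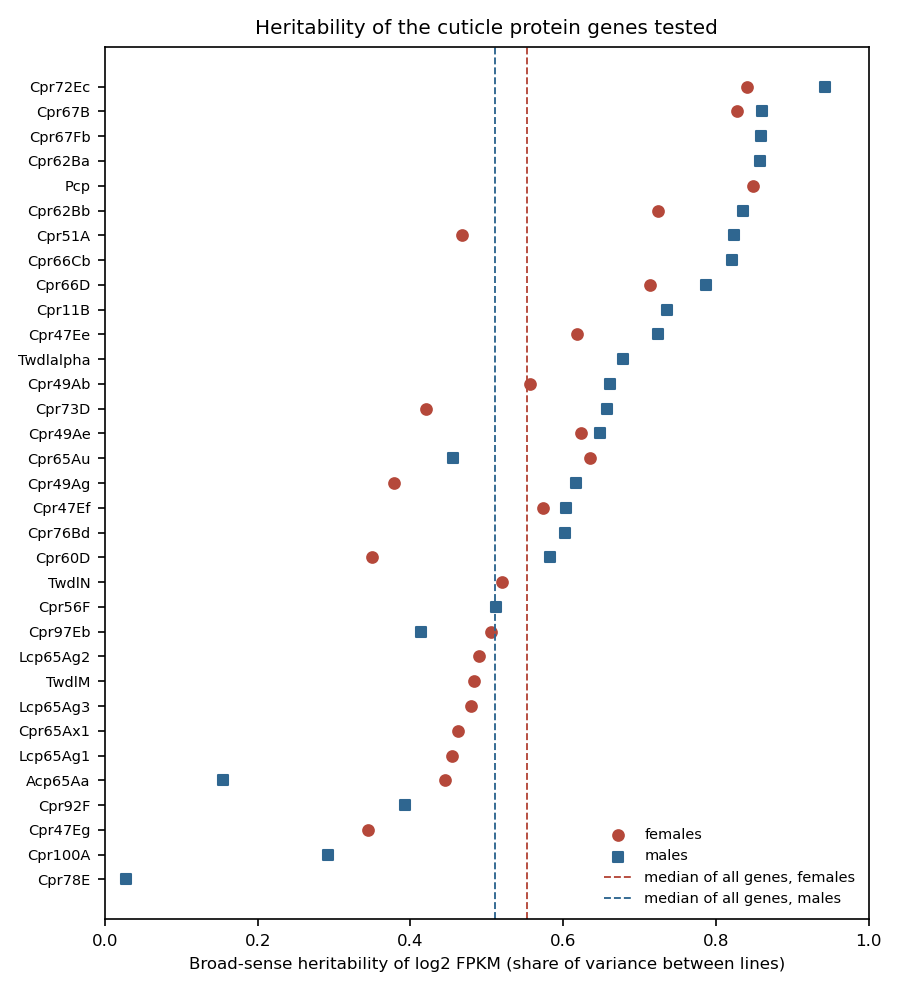
Broad-sense heritability (x axis) of the 33 cuticle protein genes tested in either sex (y axis), for females (circles) and males (squares); dashed lines are the medians of all features tested in females and males. In females Pcp stands highest at 0.848 with Cpr72Ec next at 0.841, and in males Cpr72Ec stands highest at 0.943 and Cpr78E lowest at 0.0274.

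The Tweedle genes and the genes of the 65A array that were higher in females, apart from Acp65Aa, had heritabilities between 0.455 (Lcp65Ag1) and 0.520 (TwdlN) in females. Cpr47Eg was at 0.344. Acp65Aa had 0.445 in females and 0.155 in males.

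The line-by-sex interaction, a test of whether line differences are the same in females and males, passed for 11 of the 15 genes above the filter in both sexes, a share close to that of all features tested (75.9%). Its variance had a median of 0.0371 against 0.0139 over all features. The variance covers both a change in the order of lines and a change in their spread. For Cpr72Ec it was 0.105 (limma adjusted p = 2.28e-07) while the cross-sex genetic correlation was 0.962, and the SD of line means was 1.42 in females and 1.60 in males. Cpr51A, with a variance of 0.0997 (adjusted p = 1.09e-18), had a cross-sex correlation of 0.439. Line 189 was lowest for Cpr51A in both sexes, at 0.94 and 0.99 in females and 2.59 and 2.07 in males. The highest line in females was 320, at 3.94 and 4.11 in females and 4.62 and 4.20 in males, while line 818, at 3.18 and 2.88 in females, was highest in males, at 5.29 and 5.43.

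Cpr47Ee, of the 47E array, had an interaction variance of 0.0687 (limma adjusted p = 8.93e-12). Line 136 carried much of it: its female libraries were at -4.05 and -3.21, the lowest of all, and its male libraries at 0.66 and 0.64. Without this line the variance was 0.0463 (adjusted p = 2.46e-07). The interaction did not pass for Acp65Aa, Cpr49Ag, Cpr73D and Cpr97Eb.

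The deposited variant density of a gene, on a log2 scale per line, was set against its line mean by regression over 200 lines. In females 1 of 22 genes with a usable density was called, with a negative slope (11.4% of all features negative, 8.05% positive), while 4 were called on ranks, 4 with a pseudocount of 1 FPKM and 3 without replicate 2. In males 5 of 24 were called with a negative slope (15.2% of all) and 1 with a positive slope (9.72%). Cpr62Bb was the gene called in females, with r = -0.305 and rho = -0.348 over 200 lines (adjusted p = 1.83e-04), and in males it had r = -0.364 and rho = -0.378 (adjusted p = 2.60e-06). Its neighbour Cpr62Ba had r = -0.360 and rho = -0.272 in males (adjusted p = 3.51e-06), and Cpr47Ee r = -0.307 and rho = -0.481 (adjusted p = 1.26e-04). The positive gene was Cpr76Bd, with r = 0.217 in males (adjusted p = 0.0121), and it was not called on ranks or without replicate 1. The part of read alignment in these slopes was not tested.

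Across lines, the shares of correlated pairs were close to those of all features tested. In females most of these pairs fell within 1 set of genes. Of 253 pairs among the 23 genes, 23 had an r of at least 0.5 over the 200 line means (9.09%, against 7.56% of all pairs of features tested in females), and in males 6 of 300 pairs had (2.00%, against 1.71%). The male count was 11 with a pseudocount of 1 FPKM and 11 without replicate 1, and across replicates no pair reached 0.5 in either sex. The r across replicates is taken over single libraries and is limited by the r of each gene between its own replicate libraries. None was at or below -0.5 in either sex. Of the 23 female pairs 21 were all the pairs among 7 genes: Cpr47Eg, Cpr65Ax1, Lcp65Ag1, Lcp65Ag2, Lcp65Ag3, TwdlM and TwdlN. Their r had a median of 0.799 and a range of 0.656 to 0.914 in females, and in males, where all 7 were below the filter, a median of 0.0422. These were the female-higher genes without Pcp and Acp65Aa. They lie on 3 chromosome arms: Cpr47Eg on 2R, the 65A genes on 3L and TwdlM and TwdlN on 3R. The set was drawn from these same correlations. Reads may have been divided among Lcp65Ag1, Lcp65Ag2 and Lcp65Ag3, and the part of this in their r was not tested.

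TwdlN and Cpr65Ax1 had the highest mean r to the others, 0.843 and 0.836, and with each other r = 0.914 and rho = 0.936 over 200 lines. They were picked by these same correlations, so the values are a description. Without the 2 lines farthest from the median r was 0.914. Part of this was shared by libraries rather than lines, since the differences between the pools of a line moved together. Their median r was 0.665 over the 21 pairs. Setting TwdlN of a replicate against Cpr65Ax1 of the other replicate of the same lines gave 0.462. Over the 21 pairs this cross-replicate r had a median of 0.402 and none reached 0.5. It is taken over single libraries, and the r of a gene between its own replicate libraries was 0.344 (Cpr47Eg) to 0.519 (TwdlN). A value of 0.5 was thus nearly out of reach. The distance from the r of line means does not measure sharing by libraries.

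**Figure D4:**
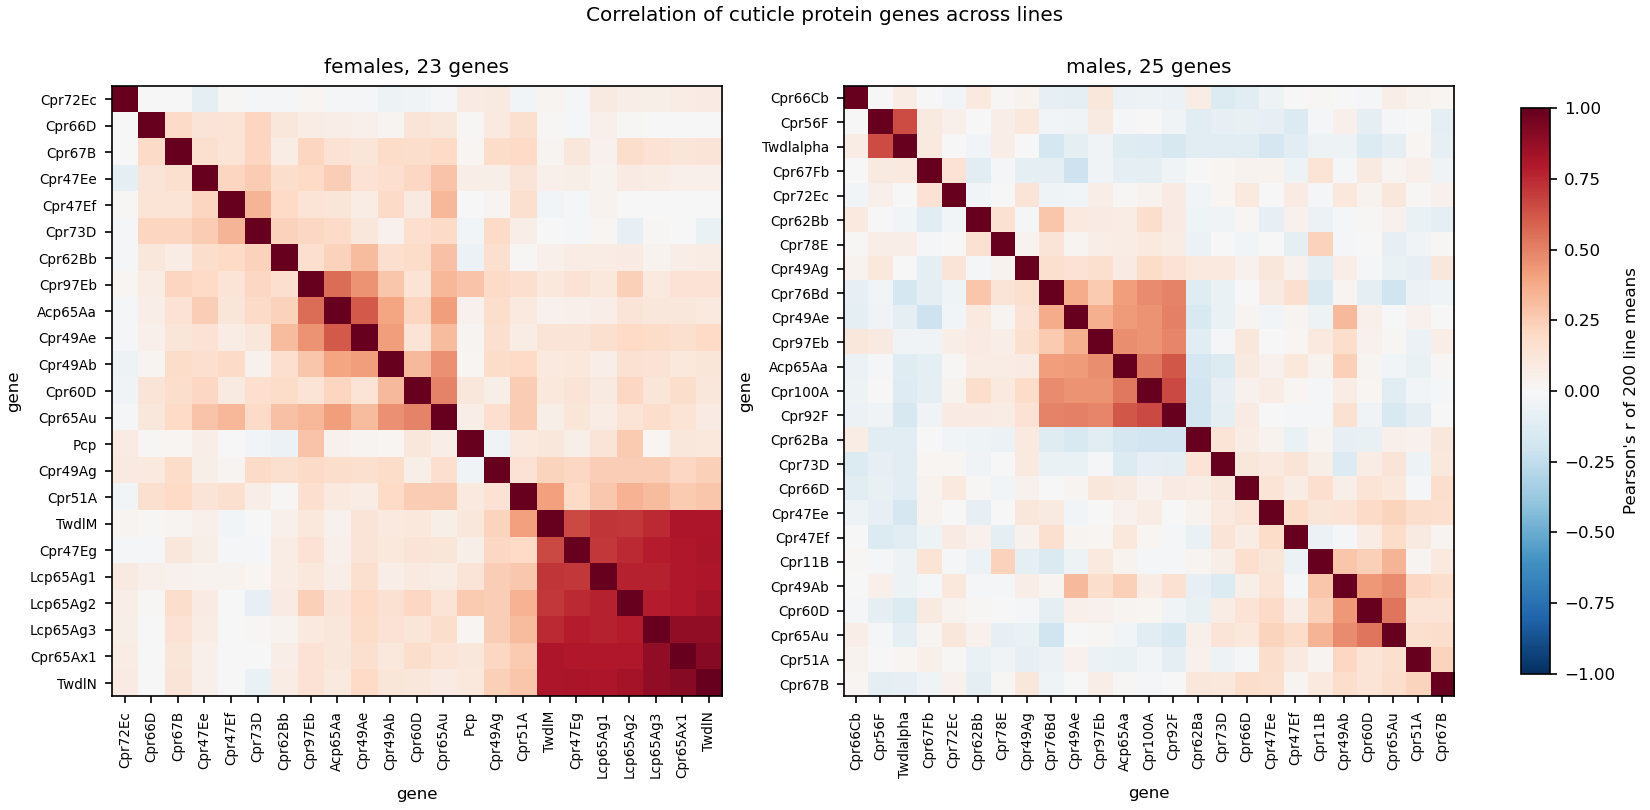
Pearson's r over 200 line means between cuticle protein genes above the filter, in females (left, 23 genes) and males (right, 25 genes), ordered by average linkage. The block of 7 genes in the lower right corner of the female panel has r of 0.656 to 0.914; the strongest pairs in males are Cpr92F with Cpr100A and Twdlalpha with Cpr56F.

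The reads behind these genes varied widely between female pools. Summed over the 7 genes, a female library held 0 to 2912 reads with a median of 227, and a male library 0 to 299 with a median of 6. At least 100 reads were present in 295 of 400 female libraries and 2 of 400 male libraries, and fewer than 10 in 34 female and 291 male libraries. In 121 lines both female libraries had at least 100 reads and in 6 lines both had under 10. The female pools of a line differed at least 2-fold in 90 lines and at least 8-fold in 12. The r between the replicate libraries of a line was 0.515 in females and 0.0256 in males.

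The lines at the ends were far apart. Line 703 had 1 and 2 reads in its female libraries and 8 and 7 in its male libraries, and line 73 had 5 and 1 in females and 6 and 4 in males. Line 320 had 1194 and 1111 reads in females and 4 and 5 in males, and line 491 had 2912 and 839 in females and 29 and 5 in males. In the lowest lines, the reads of females and males were thus similarly few. The 2 male libraries with at least 100 reads were replicate 1 of line 853 and replicate 1 of line 805, whose summed levels were 23.7 and 20.9 FPKM; their eggshell sums of 8.70 and 11.5 FPKM lay near the male median of 7.09 FPKM.

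**Figure D5:**
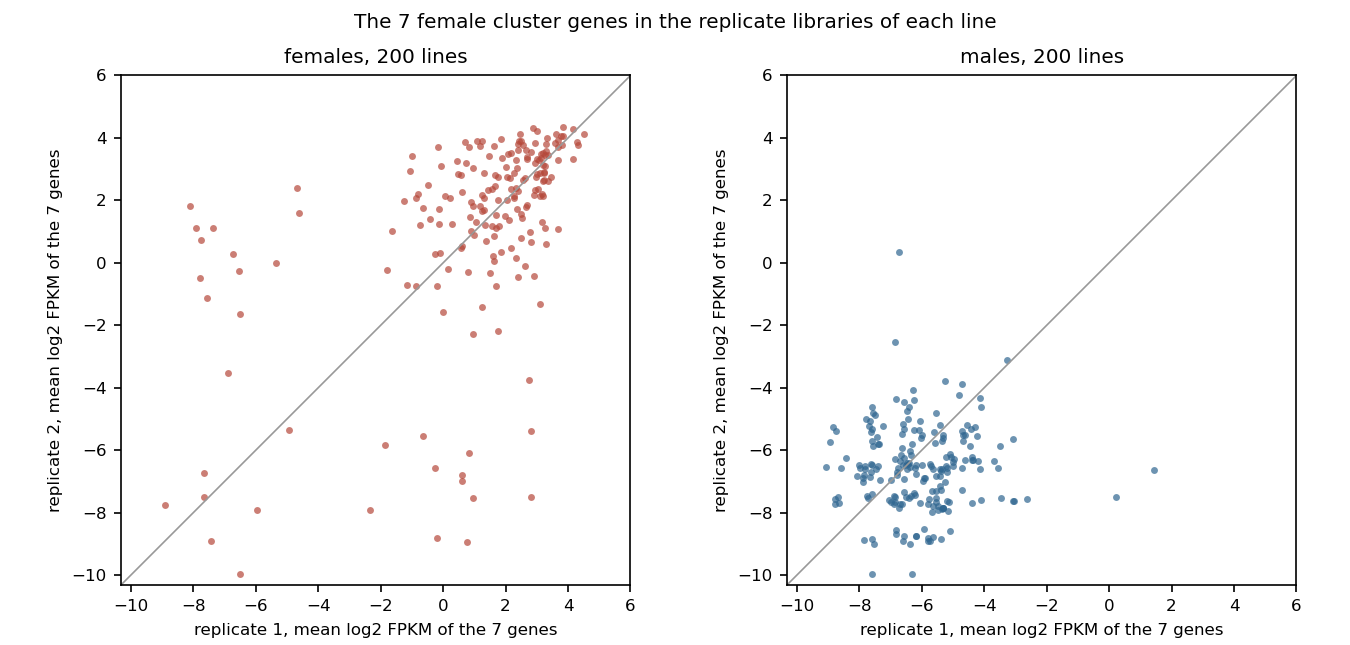
Mean log2 FPKM of the 7 genes of the female set in replicate 1 (x axis) against replicate 2 (y axis), each point 1 line, in females (left) and males (right), with the line of equal values. In females most lines lie above 0 in both pools and a scatter of lines has a low value in 1 pool; in males nearly all lines lie below -2.

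Genes below the filter also followed the set. Of 99 cuticle protein genes below the filter in females with any reads, 23 had an r of at least 0.5 with the mean of the 7 genes over female lines, and 11 had at least 0.7. This was 23.2% at 0.5 and 11.1% at 0.7, against 1.09% and 0.492% of 6908 other FlyBase-identified genes below the filter with any reads. Set against the mean of the 7 genes in the other replicate, no cuticle protein gene outside the set reached 0.5. TwdlP was highest there, at 0.484. The mean of the 7 genes itself had an r of 0.515 between the replicate libraries of females. These values therefore cannot tell sharing by libraries from the spread of single libraries. The Tweedle genes TwdlB, TwdlP and TwdlL, neighbours of TwdlM and TwdlN, had r of 0.894, 0.885 and 0.884. Cpr65Av had 0.769, Cpr11A 0.767, Lcp65Af 0.760 and Lcp65Ac 0.738. Cpr56F, which was higher in males, had 0.765 in females. The genes of the Ccp84A array differed in this: Ccp84Ae had 0.561 and Ccp84Ag 0.450, while Ccp84Aa had 0.270. Pcp and Acp65Aa were not in the set, and the r of Acp65Aa with its mean was 0.0938.

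Few other genes followed the set. Of 10924 further features tested in females, 12 had an r of at least 0.5 with its mean and 4 of at least 0.7, and none was at or below -0.5. These were CG18649 (0.899), EAChm (0.870), CG13738 (0.761), sit (0.70), CG9521 (0.693), lncRNA:roX2 (0.628), the transcription factor gene chinmo (0.581), Vajk2 (0.577), Vajk3 (0.549), the chitinase gene Cht7 (0.540), the chitin deacetylase gene Cda4 (0.531) and CG8630 (0.501). Vajk2 and Vajk3 encode other structural cuticle proteins. The list was ranked by this r, so the values are a description. Across replicates CG18649 was at 0.508, and the others listed lay between 0.282 (Vajk3) and 0.389 (CG9521).

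The noncoding RNA roX2, part of the male dosage compensation complex, had a mean of 0.16 in females and 7.55 in males. Over the 200 female line means, TwdlN and roX2 had r = 0.562 and rho = 0.622, a description like the ranked list it comes from, and r without the 2 farthest lines was 0.571. Across replicates r was 0.324. TwdlN and roX1, the partner RNA of the same complex, had r = 0.249 and rho = 0.178. Cpr65Ax1 had r = 0.562 with roX2 and 0.225 with roX1. Of the marker lists, the r with the mean of the set ranged from -0.0187 to 0.135 for 9 testis genes, from -0.0537 to 0.0194 for 4 male accessory gland genes, from -0.304 to -0.0564 for 3 yolk protein genes and from -0.276 to -0.00226 for 10 eggshell genes. The tracheal and epidermal list of 5 genes ranged from 0.0441 to 0.410. The part of other tissues in this relation was not tested.

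Smaller sets were found in both sexes. In females Acp65Aa, Cpr49Ae and Cpr97Eb had r of 0.446 to 0.614, and in males the same 3 genes had 0.356 to 0.463. Their cross-replicate r was 0.298 in females and 0.148 in males at the median. The differences between their female pools of a line had a median r of 0.549. In males Acp65Aa, Cpr92F and Cpr100A had r of 0.529 to 0.658, and in females, where Cpr92F and Cpr100A lay below the filter, 0.489 to 0.647. The cross-replicate r of Acp65Aa, Cpr92F and Cpr100A was 0.192 in females and 0.150 in males at the median, and the differences between the pools of a line had a median r of 0.685 in males. Acp65Aa itself had an r of 0.459 between the replicate libraries of a line in females and 0.155 in males.

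A further male pair was Twdlalpha and Cpr56F, on the X and on 2R, with r = 0.391 and rho = 0.526 in females, where both genes lay below the filter, and r = 0.652 and rho = 0.624 in males. It was picked from these correlations, so the values are a description. Without the 2 farthest lines r was 0.396 in females and 0.627 in males, and across replicates 0.148 in females and 0.475 in males. Both genes overlap a gene with a higher level in males, CG32568 and CkIIbeta2, as given above. Cpr60D and Cpr65Au had r of 0.497 in females and 0.539 in males.

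Neighbours in the genome did not all move together. The 125 genes formed 16 groups of neighbours with at most 2 other genes between members, holding 91 genes, and 34 stood alone. The largest, the 65A array on 3L, has 19 members, of which 6 passed the filter in females and 2 in males, with 5 higher in females and 1, Cpr65Au, higher in males. Of all features tested 20.8% were higher in females and 37.2% in males. Of the 5, all but Acp65Aa passed through females only, which fixed their direction, and Cpr65Au was not called after centring. The Tweedle array of 12 genes on 3R had 2 genes above the filter in females and none in males. In females 22 pairs of tested genes were neighbours, with a median r of 0.178 against 0.124 for the other pairs, and 7 of them reached 0.5. All 7 were within the set of 7 genes. In males 6 pairs were neighbours, with a median r of 0.108, and none reached 0.5.

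Other genes of cuticle formation were compared between the sexes in the same way, where 20.8% of all features tested were higher in females and 37.2% in males, and 30.7% and 26.2% after centring. Of 14 genes of chitin synthesis and organisation, 0 were called as higher in females and 3 as higher in males: the chitin synthase gene kkv (-1.61), knk (-1.20) and the deacetylase gene Cda5 (-1.42, log2 differences); 0 were higher in females and 1 in males after centring. Of 15 tested Cht, Idgf and Hexo genes, Cht2 was higher in females (2.61) and Idgf3 and Hexo2 in males (-1.22 and -1.09). After centring 1 of them was higher in females and 0 in males. Of 6 genes of sclerotisation and pigmentation, which harden and color the cuticle, 4 were higher in males: Ddc (-1.35), e (-1.67), b (-1.18) and t (-1.35), of which 1 passed after centring. Of 8 ecdysone response genes, usp (1.54) and ftz-f1 (1.36) were higher in females and Eip78C (-1.27) and Hr38 (-1.44) in males, and 3 were higher in females and 0 in males after centring. Of 5 other structural cuticle proteins, Acp1 was higher in males (-1.84), also after centring.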

How the data were processed

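The authors deposited log2 FPKM per gene and library, with a pseudocount of 0.001 FPKM in the values, log2 line means by sex and a log2 variant density per gene and line. The submitters' processing notes name cutadapt, BWA 0.7.10, STAR 2.4.0e, Cufflinks 2.2.1, HTSeq, edgeR and the builds BDGP5 and dm3, without roles. Symbols came from FlyBase identifiers, and arms, overlaps and neighbours from the Ensembl BDGP6.54 annotation (release 115), so no coordinates are given. Depth was recovered from whole-read steps: 100% of values below 20 reads were whole within 0.05 reads.

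Features entered with a mean log2 FPKM of 0 or more in either sex (sex difference), the sex (line variation, pairs, density) or both sexes (interaction). The sex difference was the mean of 200 line differences; line and interaction mean squares were set against the replicate mean square; variances were moderated with limma 3.58.1 in R 4.3.3, and p-values adjusted by Benjamini-Hochberg over all features. The density regressions were adjusted likewise. Pairs used Pearson's r of line means; sets came from average linkage divided at r = 0.5 with at least 3 genes. The tests were checked on simulated data. Genes named with values were the 8 highest by mean over both sexes, the 4 largest sex differences each way and the 4 highest heritabilities per sex. The 3 largest interactions, the set members, the 3 strongest density slopes and 9 stage genes by symbol were also named. Cpr100A, TwdlB and other genes singled out beyond this were chosen after their values were seen. The members and lists were chosen with earlier results of these data known. Replicate libraries came from separate pools of flies of a line.

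The cutoffs, the pseudocount, centring, the replicate block, single replicates and deposited line means were varied. Same-numbered female and male libraries were not paired by the labels.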

Additional observations from a re-analysis of the deposited data

Results flagged for a closer look

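Line differences differed between females and males, by the interaction test against replicate pools, for 11 genes. The interaction variance was 0.105 for Cpr72Ec, 0.0997 for Cpr51A, 0.0687 for Cpr47Ee, 0.0665 for Cpr49Ae and 0.0649 for Cpr60D. It was 0.0424 for Cpr66D, 0.0376 for Cpr47Ef, 0.0371 for Cpr65Au, 0.0358 for Cpr49Ab, 0.0175 for Cpr67B and 0.0156 for Cpr62Bb. The share of all features tested that passed was 75.9%.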

How the results depend on the processing

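Of the alternative values of the genes named, 217 kept their direction and their side of the threshold, 6 kept their direction and fell short of the threshold, and 1 reversed: Cpr67B, at -0.41 (female minus male) as deposited, was at 0.13 with median-centred libraries, below the minimum difference in both. Without a filter on low values, counts rose to 42 genes higher in females, 40 higher in males, 86 varying between lines in females, 71 in males and 57 with interaction. The shares of all features called without the filter are not given here, so these counts say nothing of the family. Filtering on the mean over both sexes left 1 gene higher in females. Genes higher in males numbered 10 with a pseudocount of 1 FPKM, 7 with centred libraries, 4 at a minimum difference of 2 and 10 without overlapped genes. Pairs with an r of at least 0.5 numbered 0 in females and 0 in males across replicates, and 11 in males with a pseudocount of 1 FPKM. The count across replicates rests on single libraries, whose r is limited by that of each gene between its own replicates. Variant density gave 4 genes in females on ranks, 4 with a pseudocount of 1 FPKM and 1 to 3 with a single replicate. Single replicates gave 9 genes higher in females, 16 to 17 higher in males, 23 pairs in females, 9 to 11 pairs in males and 5 to 6 density genes in males. Leaving out line 492, chosen after seeing the data, was run for the counts of genes higher in females or males and of pairs and moved none of them by over 1.5 times. With the replicate number as a block, 9 genes were higher in females, 17 in males, 23 and 24 varied between lines, and 12 had interaction; the deviations of same-numbered female and male libraries of a line had a median r of 0.0108 and none above 0.1, so they share a number only. Line variation and interaction cannot be tested within a single replicate. The causes of these shifts were not tested. At a median of 11.6 M reads in females and 11.4 M in males, 1 FPKM of a gene of 1 kb is under 20 reads, which limits values below the filter.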

Other observations

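The cytochrome P450 reductase gene Cpr, which shares only its symbol with the family, had a median of 159 FPKM in females and 331 FPKM in males, a log2 difference of -1.02 as deposited and -0.48 with centred libraries. Its heritability was 0.591 in females and 0.588 in males. Remnant larval fat body genes, a list of 6, had a median sum of 42.6 FPKM in females (1.02 to 984) and 37.1 FPKM in males (1.19 to 1214), and their r with the mean of the female set ranged from -0.184 to 0.0488. The zygotic embryo list of 8 genes had a median sum of 3.37 FPKM in females and 13.6 FPKM in males. The flight muscle list of 6 matched genes had r of 0.102 to 0.238 with the set.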
